A study of Homo sapiens with 4 samples.

Results

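The miR-182, miR-183 and miR-96 cluster was followed through the HCC cells and HCSCs of a pair of human hepatoma lines. Its members were taken by name, as the guide strands hsa-miR-182, hsa-miR-183 and hsa-miR-96, which are 3 of the 1733 mature miRNAs counted. The groups were the hepatoma cell lines Hep3B and Huh7 (hepatocellular carcinoma cells, HCC cells) and the hepatic cancer stem cells (HCSCs) cultured from each, named Hep3B-C and Huh7-C. Every group was 1 small RNA library of the 4, with no replicate, and no drug or genetic change was named in the sample labels for any of them. The HCSCs were a stem-like population enriched in culture, so a group stood for 1 culture of 1 line. The comparison of each HCSC library with its parental line asked which miRNAs differed between stem-like cells and the cancer cells from which they came.

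A miRNA is cut from a hairpin in a longer transcript, and 1 arm of the hairpin, the guide, is loaded into an Argonaute protein while the other arm, the passenger (marked by an asterisk), is mostly lost. Bases 2 to 8 of the guide, the seed, pair with target mRNAs, which are then translated less or degraded. The 3 hairpins of this cluster are transcribed together in vertebrates. The cluster is best known from sensory cells of the retina and inner ear, is often raised in carcinomas, and is known to repress FOXO1, a transcription factor that restrains proliferation.

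The guides are shown with the seed in capitals, since the members differ by 1 or 2 seed bases while their levels differed widely. The sequences are those of RefSeq on GRCh38.p14, all 3 members matched by name to the 5p arm, and each is written 5′ to 3′.
hsa-miR-182: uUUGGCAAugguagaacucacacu
hsa-miR-183: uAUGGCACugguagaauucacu
hsa-miR-96: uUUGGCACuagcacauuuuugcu
hsa-miR-1271: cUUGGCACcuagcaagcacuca
The guides of miR-182 and miR-183 were identical at 18 of 22 aligned positions, counted from 1 at the 5′ end without gaps, but only at 5 of the 7 seed bases (U2A and A8C from miR-182 to miR-183). The guide of miR-96 had 12 of 23 positions identical to miR-182 and 13 of 22 identical to miR-183. Its seed was closer to both, with 6 of the 7 bases identical in each case (A8C from miR-182 to miR-96 and A2U from miR-183 to miR-96). The seeds of miR-182 and miR-183 were each held by 1 of 2370 mature miRNAs of the RefSeq table, and that of miR-96 by 2. The other one was hsa-miR-1271, encoded on another chromosome (chr5:176367960-176367981, plus strand).

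The genes of the cluster lay on the minus strand of chromosome 7 within 4632 nt (chr7:129770383-129775014, GRCh38, GENCODE release 29). No other annotated gene overlapped them. MIR182 (chr7:129770383-129770492) was 4199 nt away from MIR96 (chr7:129774692-129774769), which was 135 nt away from MIR183 (chr7:129774905-129775014). The nearest other genes were the protein-coding NRF1, 13301 nt from MIR182, and the lincRNA AC084864.1, 8356 nt from MIR183. The hairpins of MIR182 and MIR96 are shown with both arms in capitals (guide first), because the 2 arms of one hairpin were counted separately. The hairpin of MIR183 is named only.
MIR182: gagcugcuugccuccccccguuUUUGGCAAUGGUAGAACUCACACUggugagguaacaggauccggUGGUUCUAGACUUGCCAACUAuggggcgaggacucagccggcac
MIR96: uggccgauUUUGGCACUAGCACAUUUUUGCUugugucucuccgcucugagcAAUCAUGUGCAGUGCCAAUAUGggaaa

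The libraries held between 1739278 and 5741567 miRNA counts. These made up 10.36% of all reads of the Hep3B library, against 35.17% to 54.05% of the others. A level scaled to total reads (TPM, counts per 1000000 total reads) is therefore not the same quantity as a level scaled to miRNA counts (CPM, counts per 1000000 miRNA counts), and both are given. One count equalled at most 0.0941 TPM, and a level of 3 counts was used as the lower limit of what the depth can show (0.179 to 0.282 TPM). The labelled cell type was checked against miR-122, the main miRNA of hepatocytes, which had 397 counts in Hep3B against 149892 in Hep3B-C, and 489443 in Huh7 against 144814 in Huh7-C. miR-122 was thus low in Hep3B compared with the other 3 libraries. miR-192, also a hepatocyte marker, had 179088 counts in Hep3B and 386372 in Hep3B-C, and the sum of miR-122, miR-192 and miR-194 was 106112 CPM in Hep3B and 100897 in Hep3B-C. In the other pair that sum was 213934 CPM in Huh7 and 157932 in Huh7-C. In bulk libraries, fewer cells that hold a miRNA and less of it per cell cannot be told apart. All intervals are 95% intervals of counting error, which do not cover the spread between cultures.

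The cluster was among the most counted miRNAs of these libraries, and nearly all of its counts were miR-182 and miR-183. The mature miRNAs are 22 to 24 nt long, so the members were set side by side without a term for length. Whether the libraries captured each sequence equally well was not tested, so differences between members are differences in counts. miR-182 had 113976 counts in Hep3B against 496361 in Hep3B-C, and 114108 in Huh7 against 106719 in Huh7-C. That made it the 5th, 3rd, 8th and 7th most counted miRNA of those libraries. miR-183 had 33817 counts in Hep3B against 135151 in Hep3B-C, and 22532 in Huh7 against 26420 in Huh7-C, which put it between rank 11 (Hep3B-C) and rank 21 (Huh7). miR-96 was far lower in every library, with 249 counts in Hep3B against 677 in Hep3B-C, and 605 in Huh7 against 231 in Huh7-C. Its rank lay between 115 and 133, so its level was still well above that of 3 counts.

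Scaled to total reads, miR-182 stood at 6791 TPM in Hep3B against 32147 in Hep3B-C, and 10742 in Huh7 against 9960 in Huh7-C. Hep3B-C was the highest library by a wide margin, and the other 3 were closer together. miR-183 stood at 2015 TPM in Hep3B against 8753 in Hep3B-C, and 2121 in Huh7 against 2466 in Huh7-C, and again Hep3B-C alone was high. miR-96 had another order, with 14.8 TPM in Hep3B against 43.8 in Hep3B-C, and 57.0 in Huh7 against 21.6 in Huh7-C. Here the parental line Huh7 was highest and its HCSCs were the third. The highest library exceeded the lowest 4.73-fold for miR-182, 4.34-fold for miR-183 and 3.84-fold for miR-96, and no neighbours in any of these orders had overlapping counting intervals.

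Scaled to miRNA counts, the order of the libraries changed. miR-182 made up 6.55% of the miRNA counts of Hep3B, 9.14% of Hep3B-C, 1.99% of Huh7 and 2.64% of Huh7-C. Both Hep3B-derived libraries were then above both Huh7-derived ones. miR-183 followed the same order, with 1.94% in Hep3B against 2.49% in Hep3B-C, and 0.392% in Huh7 against 0.653% in Huh7-C. The highest library exceeded the lowest 4.60-fold for miR-182 and 6.34-fold for miR-183. miR-96 reached 143 CPM in Hep3B against 124.7 in Hep3B-C, and 105 in Huh7 against 57.1 in Huh7-C, a range of 2.51-fold. Its Hep3B and Hep3B-C levels had overlapping intervals (0.0126% to 0.0162% and 0.0115% to 0.0134%) and could not be separated at this depth.

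**Figure D1:**
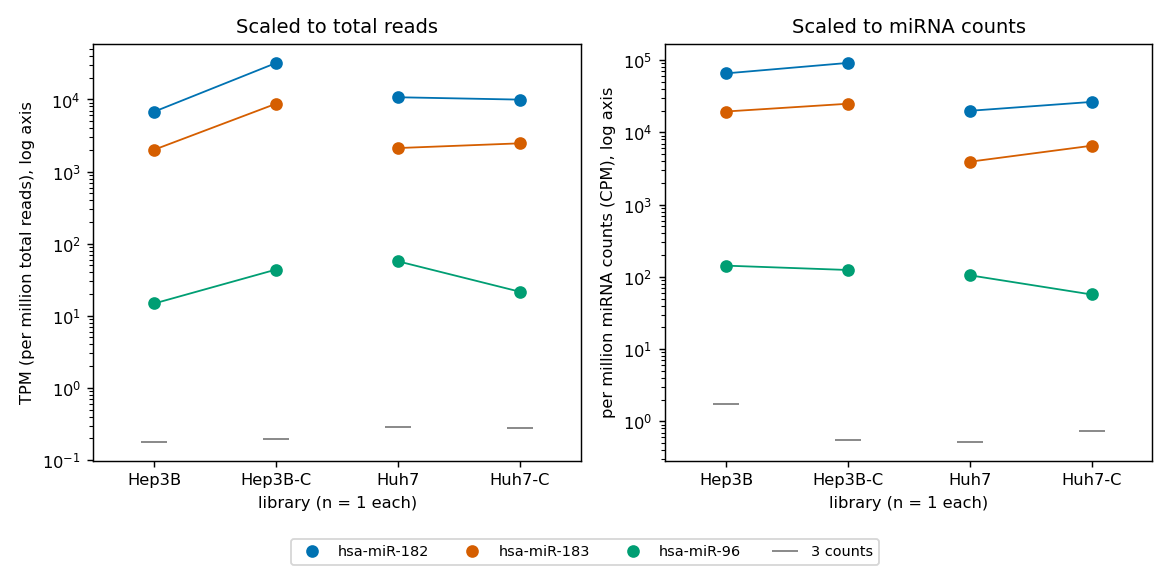
Level of each member in the 4 libraries (n = 1 each), in TPM on total reads (left) and in CPM on miRNA counts (right), both on log axes, with lines joining each parental line to its HCSCs and grey marks at the level of 3 counts. miR-182 and miR-183 rise from 6791 and 2015 TPM in Hep3B to 32147 and 8753 TPM in Hep3B-C on the left, while the same lines are much flatter on the right, and miR-96 lies far below both on either scale.

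Summed, the 3 members took 8.51% of the miRNA counts of Hep3B (8.47% to 8.55%) and 11.6% of those of Hep3B-C (11.62% to 11.67%). In Huh7 the sum was 2.39% (2.38% to 2.40%) and in Huh7-C 3.30% (3.28% to 3.31%). The cluster thus held a larger share of the miRNA counts in the HCSCs than in the HCC cells of either line, and a larger share in both Hep3B-derived libraries than in both Huh7-derived ones.

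Hep3B-C was compared with Hep3B with Audic and Claverie's exact Poisson test on total reads, which tests the difference between 2 libraries and covers counting error only. A miRNA was called up- or down-regulated at a change of at least 1 in either direction on the log2 scale with a Benjamini-Hochberg adjusted p of at most 0.01 over all 834 miRNAs with a count. All 3 members were called up-regulated in Hep3B-C, where 34.1% of all miRNAs passed as up-regulated and 2.52% as down-regulated. Of the 834, 475 reached 10 counts in 1 library or both, and the others could hardly pass. The share up-regulated among well-counted miRNAs, such as these members, was therefore higher than 34.1% and was not computed. miR-182 was 4.73-fold higher (log2 fold-change 2.24, interval 2.23 to 2.25). miR-183, its close relative in sequence, was 4.34-fold higher (log2 fold-change 2.12, interval 2.10 to 2.14). miR-96 was 2.96-fold higher, which is 1.56 on the log2 scale (interval 1.35 to 1.78, Audic and Claverie's exact test with Benjamini-Hochberg adjustment, adjusted p = 8.02e-54).

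The whole miRNA profile was shifted upward in this pair. The median log2 fold-change over 475 miRNAs (those reaching 10 counts in 1 library or both) was 1.42. Relative to that median, the log2 fold-change was 0.82 for miR-182, 0.70 for miR-183 and 0.14 for miR-96. Of those 475 miRNAs, 71.6% had a smaller log2 fold-change than miR-182, 68.6% a smaller one than miR-183 and 54.3% a smaller one than miR-96. miR-182 and miR-183 thus lay in the upper part of the profile, and miR-96 lay close to its middle.

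With total miRNA counts as library sizes, none of the 3 was called in this pair (5.64% of all miRNAs passed as up-regulated and 13.4% as down-regulated). The log2 fold-change was then 0.48 for miR-182 and 0.36 for miR-183. That of miR-96 turned to -0.20 (interval -0.41 to 0.016, Audic and Claverie's exact test with Benjamini-Hochberg adjustment, adjusted p = 0.140), so no direction was shown for miR-96 on this scale. Changing the scale moves every miRNA of the pair by the same amount. That amount is set by the share of miRNA reads in all reads, 10.36% in Hep3B and 35.17% in Hep3B-C. What lay behind the low share in Hep3B was not tested, and a change in all miRNAs cannot be told apart from a change in the other reads of that library.

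Huh7-C against Huh7 gave a different picture on total reads. Only miR-96 was called, as down-regulated, where 17.1% of the 772 miRNAs with a count passed as down-regulated and 3.11% as up-regulated. It fell to 0.379-fold of its level in Huh7 (log2 fold-change -1.40, interval -1.63 to -1.18, Audic and Claverie's exact test with Benjamini-Hochberg adjustment, adjusted p = 2.60e-39). miR-182 stood at 0.927-fold (log2 fold-change -0.11, interval -0.12 to -0.10) and miR-183 at 1.16-fold (log2 fold-change 0.22, interval 0.19 to 0.24). Both intervals lay apart from 0 but well inside the fold-change limit, so neither miRNA was called. Of the 772 miRNAs, 431 reached 10 counts in 1 library or both, and the others could hardly pass. The share down-regulated among well-counted miRNAs was therefore higher than 17.1%.

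The profile of the Huh7 pair was shifted downward, with a median log2 fold-change of -0.66 over 431 miRNAs. Relative to it, miR-182 stood at 0.56, miR-183 at 0.88 and miR-96 at -0.74. A smaller log2 fold-change was found for 66.6% of these miRNAs in the case of miR-182, for 76.6% in that of miR-183 and for 26.9% in that of miR-96. miR-183 was thus the highest member in this pair, and miR-96 the lowest. Scaled to total miRNA counts, the log2 fold-changes were 0.41 for miR-182, 0.73 for miR-183 and -0.88 for miR-96 (interval -1.11 to -0.66), and no member was called (7.25% of all miRNAs passed as up-regulated and 9.59% as down-regulated).

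**Figure D2:**
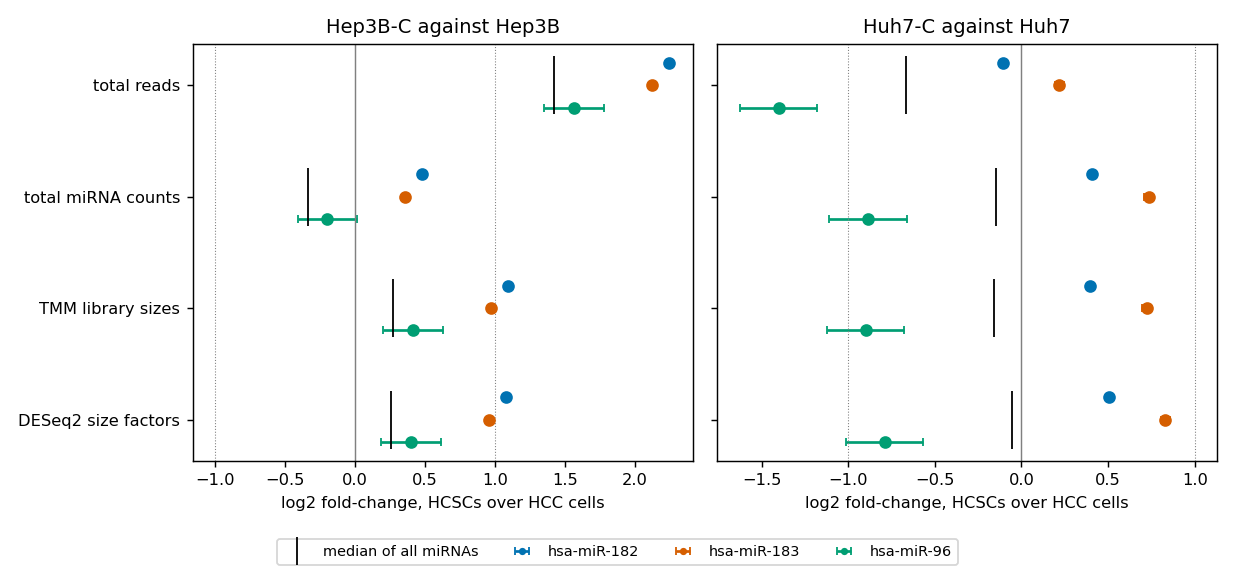
Log2 fold-change of each member in HCSCs over HCC cells of the Hep3B pair (left) and the Huh7 pair (right) under 4 library sizes, with 95% counting intervals, a black bar at the median of all miRNAs that reach 10 counts and dotted lines at -1 and 1. Changing the library size moves all members and the median together, so miR-182 and miR-183 stay to the right of the bar in every row, while miR-96 is just right of it in the Hep3B pair and left of it in the Huh7 pair.

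The distance between the pairs depended on the scale. On total reads, the log2 fold-change of the Hep3B pair exceeded that of the Huh7 pair by 2.35 for miR-182 (counting interval 2.34 to 2.37), by 1.90 for miR-183 (1.87 to 1.93) and by 2.96 for miR-96 (2.66 to 3.27). On total miRNA counts, the same differences were 0.07 for miR-182 (0.06 to 0.09), -0.38 for miR-183 (-0.41 to -0.35) and 0.68 for miR-96 (0.38 to 0.99). The sign of the difference turned for miR-183 on this scale only. With TMM library sizes and DESeq2 size factors the differences were 0.70 and 0.57 for miR-182, 0.25 and 0.12 for miR-183, and 1.31 and 1.19 for miR-96, all higher in the Hep3B pair.

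**Figure D3:**
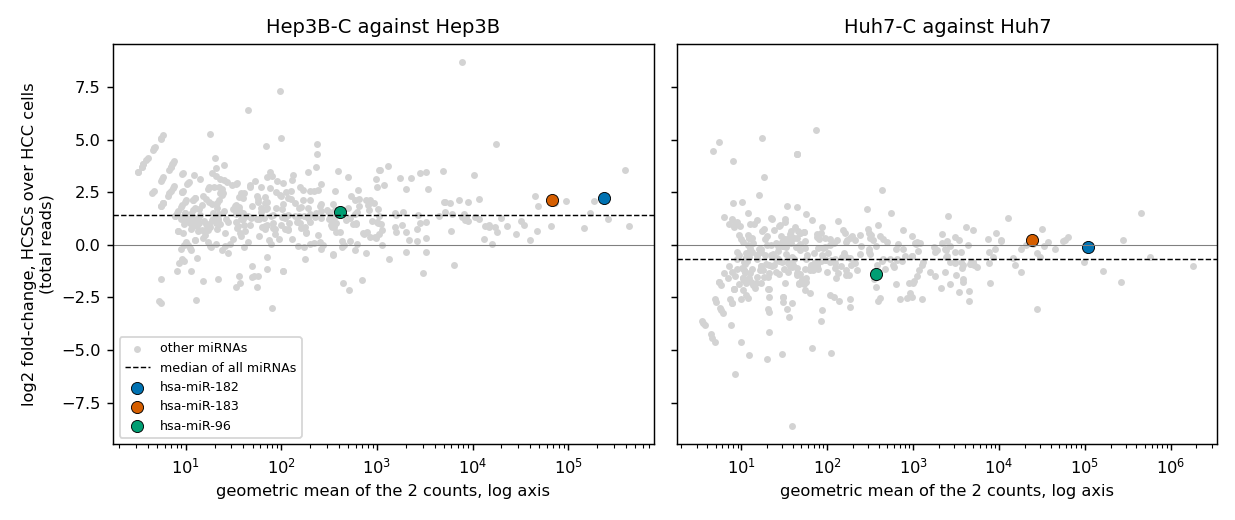
Log2 fold-change on total reads against the geometric mean of the 2 counts (log axis) for miRNAs that reach 10 counts in one library and have at least 1 in both, Hep3B pair on the left and Huh7 pair on the right, with the members in colour and the median of all miRNAs (1.42 and -0.66) dashed. miR-182 and miR-183 sit at the far right of each cloud above the dashed line, and miR-96 sits in its middle, near the line in the Hep3B pair and below it in the Huh7 pair.

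Ratios between the members within a library do not depend on the library size, and they showed that the make-up of the cluster differed between libraries. miR-182 made up 77.0% of the summed counts of the 3 members in Hep3B against 78.5% in Hep3B-C, and 83.1% in Huh7 against 80.0% in Huh7-C. miR-183 made up 22.8% in Hep3B against 21.4% in Hep3B-C, and 16.4% in Huh7 against 19.8% in Huh7-C. These shares lay within a narrow range, with the parental lines at either end and the HCSCs between them. miR-96 made up 0.168% of the sum in Hep3B (0.148% to 0.190%), 0.107% in Hep3B-C (0.0992% to 0.1155%), 0.441% in Huh7 (0.406% to 0.477%) and 0.173% in Huh7-C (0.152% to 0.197%). Its share was lower in the HCSCs than in the parental line of both pairs, and the intervals of the 2 libraries of a pair did not overlap.

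**Figure D4:**
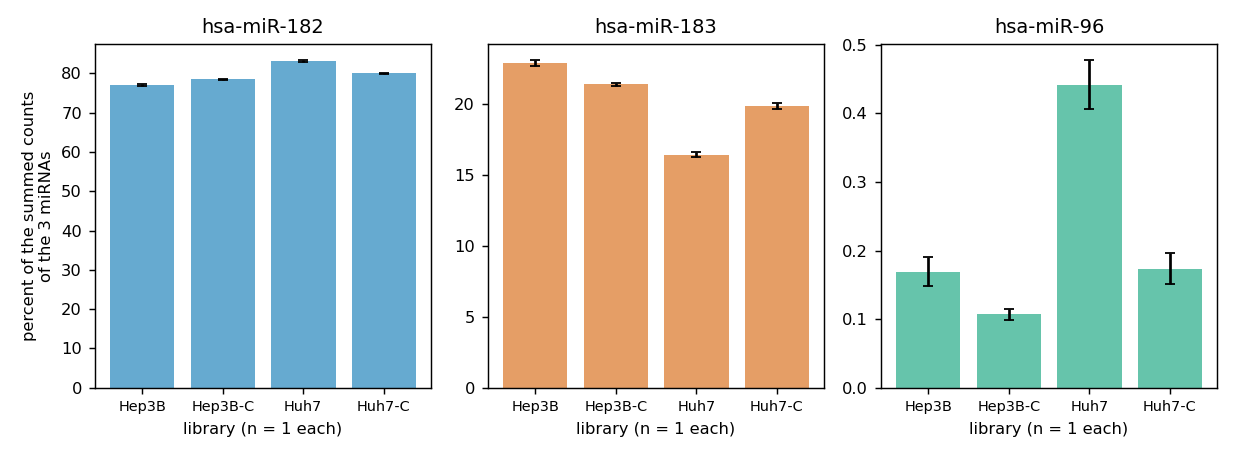
Share of miR-182, miR-183 and miR-96 in the summed counts of the 3 miRNAs in each library (n = 1 each), in percent, with exact 95% binomial intervals as error bars and a separate axis starting at 0 in each panel. The miR-96 bar of Huh7 (0.441%) stands far above the other 3 (0.107% to 0.173%), while the bars of miR-182 and miR-183 differ little.

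Relative to miR-182, miR-96 was lower in the HCSCs of both lines. There were 458 counts of miR-182 per count of miR-96 in Hep3B and 733 in Hep3B-C, a log2 change of the miR-96 to miR-182 ratio of -0.68 (interval -0.89 to -0.46). In the Huh7 pair there were 189 in Huh7 and 462 in Huh7-C, a log2 change of -1.29 (-1.52 to -1.07). Against miR-183, whose gene lies next to its own, miR-96 changed by -0.56 on the log2 scale in the Hep3B pair (-0.77 to -0.34) and by -1.62 in the Huh7 pair (-1.85 to -1.40). The direction was the same in both lines against either partner, with no replicate check in either.

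miR-183 and miR-182 stayed closer to each other. There were 3.37 counts of miR-182 per count of miR-183 in Hep3B against 3.67 in Hep3B-C, and 5.06 in Huh7 against 4.04 in Huh7-C. The log2 change of the miR-183 to miR-182 ratio was -0.12 in the Hep3B pair (-0.14 to -0.10) and 0.33 in the Huh7 pair (0.30 to 0.35), so the direction differed between the lines. Between the parental lines, Huh7 over Hep3B, the log2 ratio was -0.59 for miR-183 to miR-182 and 1.28 for miR-96 to miR-182 (1.06 to 1.498). Between the HCSCs, Huh7-C over Hep3B-C, the same log2 ratios were closer to 0, at -0.14 and 0.67.

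The 3 members are transcribed together, so the gap between their largest and smallest log2 fold-change was set beside that of other miRNA clusters. Each was a list of members, and every listed member had at least 10 counts in both libraries. Some lists were incomplete, with miR-24 missing from miR-23a~27a and miR-23b~27b, and miR-19b from miR-17~92a. The gaps of such clusters therefore cover only a part of their members. In the Hep3B pair the gap was 0.68, and those of 11 other clusters ran from 0.06 to 1.77 with a median of 0.62. Of these, 5 were wider and 6 narrower. With clusters of at least 2 such members also admitted, a choice made after seeing the data, there were 12 (median 0.75), of which 6 were wider and 6 narrower. In the Huh7 pair the gap was 1.62, beside a range of 0.40 to 2.15 and a median of 0.93 in 12 other clusters, of which 4 were wider and 8 narrower. The widest were miR-106b~25 in the Hep3B pair and miR-30b~30d in the Huh7 pair. Clusters of unlike size were set together here, although such a gap can only widen as members are added. In the Hep3B pair, all narrower clusters had 2 listed members, and every other cluster with at least 3 listed was wider. For clusters listed in part, the full size is larger than that. In the Huh7 pair, clusters with at least 3 listed members lay on both sides. The counts of wider and narrower clusters therefore do not show how usual the gap was for a cluster of 3.

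Over both lines, the HCSCs were compared with the HCC cells by edgeR's quasi-likelihood test with the parental line as a block, the only comparison with 2 libraries per state. Of 443 miRNAs tested, 0 were called (0% of all) at an adjusted p of 0.05, while 31 had an unadjusted p under 0.05, and DESeq2 called 4 up-regulated and 1 down-regulated, none of them a member. The log2 fold-change was 0.74 for miR-182 (SE 0.32, edgeR adjusted p = 0.584) and 0.84 for miR-183 (SE 0.36, adjusted p = 0.584). That of miR-96 was -0.24 (SE 0.64, edgeR adjusted p = 0.906). With 1 residual degree of freedom and a biological coefficient of variation of 0.55, none of these differences passed the test.

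The passenger arms were almost absent. miR-182*, the passenger of the most abundant member, had 0 counts in Hep3B against 2 in Hep3B-C, and 1 in Huh7 against 1 in Huh7-C. miR-183* had 13 counts in Hep3B against 28 in Hep3B-C, and 18 in Huh7 against 6 in Huh7-C, or 0.0384%, 0.0207%, 0.0798% and 0.0227% of the counts of its hairpin. miR-96* had 0 counts in all 4 libraries, which allows a share of the hairpin of up to 0.443% in Hep3B-C and up to 1.30% in Huh7-C. No passenger arm was called in either pair.

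Over the 4 libraries, the passenger took 0.000481% of the hairpin's counts for miR-182 and 0.0298% for miR-183. The median over 75 hairpins with at least 1000 counts and both arms named in this way was 0.966%, and a lower share than that of miR-182 was found for 5 hairpins and a lower one than that of miR-183 for 13. For miR-96, the passenger had 0 counts over the 4 libraries. In Hep3B-C and Huh7, these allow shares of up to 0.443% and 0.496%, both below that median. In Hep3B and Huh7-C, with fewer guide counts, they allow up to 1.47% and 1.58%. A limit for the 4 libraries together was not computed. The share of miR-96 was thus below the median where its guide counts were highest, but its exact place among the hairpins was not shown. hsa-miR-1271, which shares the seed of miR-96, had 2 counts in Hep3B against 6 in Hep3B-C, and 8 in Huh7 against 4 in Huh7-C, and was called in neither pair. Nearly all counts with that seed therefore belonged to miR-96.

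The miRNAs whose profile over the 4 libraries was most like that of the summed cluster were ranked by the Euclidean distance between centred log2 levels, among 352 miRNAs with at least 100 counts in all. The nearest was miR-4687-3p at a distance of 0.35, with only 17, 86, 13 and 14 counts in Hep3B, Hep3B-C, Huh7 and Huh7-C. miR-423-5p followed at 0.37 (3036, 10950, 2975 and 2090 counts in the same order) and miR-320a at 0.42 (2617, 9717, 2957 and 1989 counts). miR-365* (0.54) and miR-3127-5p (0.56) completed the 5 nearest. All 5 were highest in counts in Hep3B-C, as the cluster was, which follows from how they were chosen.

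Within the cluster, miR-182 and miR-183 lay 0.44 apart. miR-183 was the 4th nearest of 351 miRNAs to miR-182, and miR-182 the 6th nearest to miR-183. miR-96 was 1.42 away from miR-182, the 77th nearest to it, and 1.80 away from miR-183, the 100th nearest. The median distance of all miRNAs was 2.50 from miR-182 and 2.68 from miR-183. By profile, therefore, miR-182 and miR-183 formed a close pair while miR-96, whose gene lies between theirs, was much farther from both.

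Among other epithelial miRNAs (miR-200a, miR-200b, miR-200c, miR-141, miR-429 and miR-203, which mark epithelial cells and, for the miR-200 family, repress the mesenchymal factors ZEB1 and ZEB2), 3 of 6 were called up-regulated in Hep3B-C and 0 down-regulated, beside 34.1% and 2.52% of all miRNAs. Their median log2 fold-change was 1.47 over the 5 with at least 10 counts in both libraries, beside 1.42 over all miRNAs. miR-200c rose from 606 counts in Hep3B to 5085 in Hep3B-C (log2 fold-change 3.19) and miR-141 from 27 to 236 (3.25), both beyond miR-182 and miR-183. On total miRNA counts these 2 were still called up-regulated, miR-200b no longer was, and miR-429 was called down-regulated (5.64% and 13.4% of all miRNAs). In the Huh7 pair, 5 of them were tested and 0 were called in either direction. There miR-200a, miR-200b and miR-429 had between 0 and 2 counts, while miR-182 and miR-183 remained among the most counted miRNAs.

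Among other miRNAs of the 7q32 region (miR-29a, miR-29b, miR-335, miR-129-5p and miR-593), 0 of the 4 tested were called in the Hep3B pair and 2 of the 3 tested were called down-regulated in the Huh7 pair, beside 2.52% and 17.1% of all miRNAs called down-regulated in those pairs. On total miRNA counts, miR-29a and miR-29b were called down-regulated in both pairs (13.4% and 9.59% of all miRNAs). miR-29a, which represses collagen mRNAs, went from 11462 counts in Huh7 to 1795 in Huh7-C (log2 fold-change -2.69), and miR-29b from 1697 to 285 (-2.59). In the Hep3B pair, miR-29a had 1786 counts in Hep3B and 1023 in Hep3B-C (log2 fold-change -0.68). The log2 fold-changes of miR-29a and miR-29b were below the median of all miRNAs in both pairs, where those of miR-182 and miR-183 were above it.

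**Figure D5:**
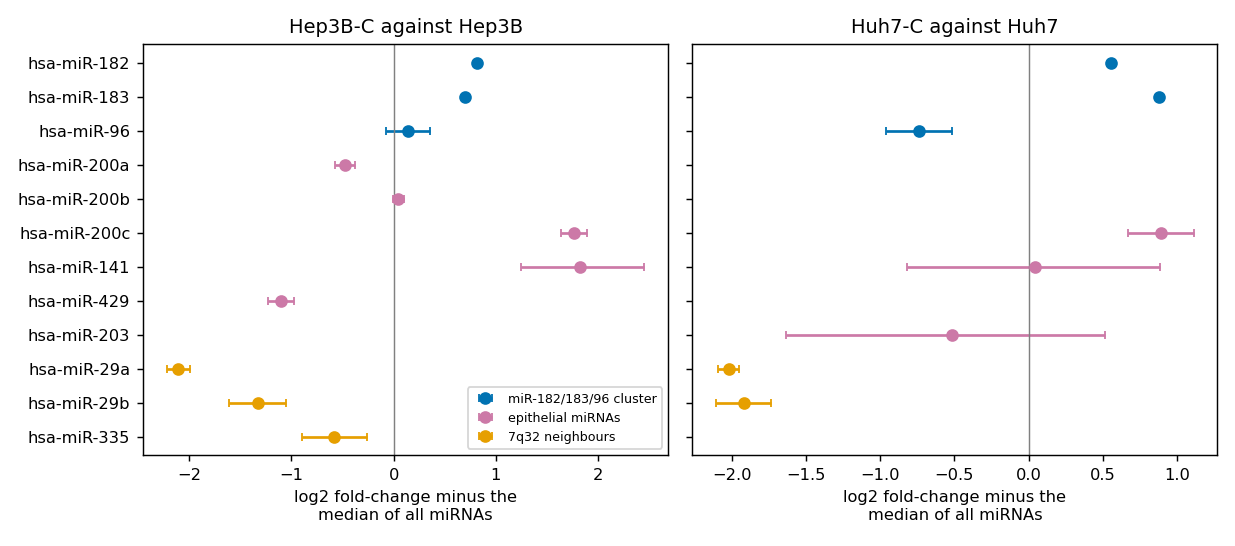
Log2 fold-change on total reads minus the median of all miRNAs, for the members, other epithelial miRNAs and 7q32 neighbours that reach 10 counts in both libraries of a pair (Hep3B pair left, Huh7 pair right), with 95% counting intervals. miR-182 and miR-183 lie right of 0 in both panels, miR-29a and miR-29b left of it in both, and miR-96 changes side, although its interval in the Hep3B pair reaches past 0.

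Markers of other cell types were read beside these values, with calls on total reads (34.1% of all miRNAs higher and 2.52% lower in Hep3B-C, with 3.11% and 17.1% for Huh7-C) and summed levels in CPM. Of 5 blood miRNAs, 0 were called in the Hep3B pair and 2 were called down-regulated in the Huh7 pair, and their sum was 4.60 CPM in Hep3B and 0.184 in Hep3B-C, beside 138.6 in Huh7 and 1.24 in Huh7-C. The red-cell miRNA miR-451 had 773 counts in Huh7 and at most 2 in each other library, and miR-144 was at 0 in all, although the other arm of its hairpin, miR-144*, had 4 to 17 counts in each library. Of 4 mesenchymal miRNAs, 1 was called up-regulated in the Hep3B pair (sum 246 to 315 CPM) and 1 down-regulated in the Huh7 pair (sum 8.88 to 4.70 CPM). Of 2 endothelial miRNAs, 1 was called up-regulated in the Hep3B pair (504 to 294 CPM) and 1 down-regulated in the Huh7 pair (385 to 421 CPM). The muscle and neuron list, in which miR-124 was at 0 in all libraries, had 2 of 5 called up-regulated in the Hep3B pair (91.99 to 160.4 CPM) and 0 in the Huh7 pair (1706 to 2816 CPM). All of these sums were far below the 8.51% to 11.6% and 2.39% to 3.30% of miRNA counts that the cluster held. Their part in its values was not tested.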

How the data were processed

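Small RNA of 4 libraries (Hep3B, Hep3B-C, Huh7 and Huh7-C, 1 per group) had been sequenced on the Illumina Genome Analyzer. Per the study's methods, contaminant and redundant reads and reads under 18 nt were removed, the rest were aligned to NCBI Build 36.1 with SOAP (version not given in the sources used here), other small RNA classes were set aside, and the remainder was assigned to miRBase release 17. The authors deposited the raw counts of 1733 miRNAs, without normalization. Library totals were those stated in the study. A redundancy filter before counting can compress high counts, and its effect was not tested.

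The members, the lists and the tests were chosen with earlier results of these data known. Named miRNAs were the 3 members, their passengers, miRNAs with the same seed, the 5 nearest profiles (pseudocount 0.5 counts) and the epithelial, 7q32, cell type and cluster lists. The passenger arms miR-29b-1* and miR-29b-2* were also named beside the 7q32 list, and miR-144* beside the cell type lists.

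Pairs were compared by Audic and Claverie's exact Poisson test, 2-sided, over miRNAs counted at least once in the pair, with Benjamini-Hochberg adjustment and a TPM of 0 set to 0.001. Intervals of fold-changes and shares come from the exact binomial distribution, those of ratios from the conditional exact distribution, and those of differences between pairs from a normal approximation. For both lines, edgeR's quasi-likelihood test was fitted after TMM scaling, over miRNAs with at least 10 counts in 2 libraries. The parental line was the block because each HCSC line came from it (correlation of the deviations 0.836, over 443 miRNAs). Alternatives were total miRNA counts, TMM and DESeq2 size factors as library sizes, the exact binomial test, the exact test of edgeR at a biological coefficient of variation set to 0.2 or 0.4, a filter of 10 counts, DESeq2, no filter, no block and each library left out. The fits with a library left out had no block. The tests were tested on simulated data. Sequences were matched by name to RefSeq (GRCh38.p14) and positions to GENCODE release 29 (GRCh38), with no coordinates converted. Python 3.11.15, numpy 2.4.6, scipy 1.17.1, pandas 2.3.3, matplotlib 3.10.9, R 4.3.3, edgeR 4.0.16 and DESeq2 1.42.0 were used.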

Additional observations from a re-analysis of the deposited data

Results flagged for a closer look

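On total reads, the log2 fold-changes of 2 members had opposite signs in the 2 lines, although miR-182 was not called in the Huh7 pair. The log2 fold-change of miR-182 in HCSCs over HCC cells was 2.24 for Hep3B-C and -0.109 for Huh7-C, and that of miR-96 was 1.56 for Hep3B-C and -1.4 for Huh7-C. With 1 library per group, neither difference could be set against the spread between cultures, and it was not tested. Of the 4 library sizes, only total reads gave miR-182 opposite signs, and on total miRNA counts miR-96 was negative in both lines (-0.20 and -0.88).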

How the results depend on the processing

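Library size decided the calls. In the Hep3B pair, total miRNA counts, TMM library sizes and DESeq2 size factors gave log2 fold-changes of 0.48, 1.09 and 1.08 for miR-182 (no longer called with the first), 0.36, 0.97 and 0.95 for miR-183 (not called), and -0.20, 0.41 and 0.40 for miR-96 (not called). The summed members had 0.45, 1.06 and 1.05. In the Huh7 pair, in the same order, miR-182 turned to 0.41, 0.40 and 0.50 and the sum to 0.46, 0.45 and 0.56, while miR-96 had -0.88, -0.90 and -0.79 and was not called. Of all miRNAs of the Hep3B pair, 284 passed as up-regulated and 21 as down-regulated on total reads, 47 and 112 on total miRNA counts, 100 and 54 with TMM, and 98 and 58 with DESeq2 size factors. For Huh7-C these were 24 and 132, then 56 and 74, 54 and 74, and 63 and 70. At a biological coefficient of variation of 0.2 (assumed), the call of miR-96 in the Huh7 pair (-1.40) was lost. With 0.4 that call was lost too, as were those of miR-182 (2.24), miR-183 (2.12) and miR-96 (1.56) in the Hep3B pair. An exact binomial test and a filter of 10 counts changed no call of a member. Summing both arms of each hairpin left each log2 ratio between members within its interval. With so few passenger counts, that could hardly have come out otherwise.

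Over both lines, miR-96 turned to 0.0805 with total reads as library sizes. The fits with 1 library left out also had no block, so the difference between the lines enters their values. In those fits miR-96 ranged from -0.57 to 0.15. There miR-182 ranged from 0.14 to 1.35 and miR-183 from 0.10 to 1.59, lowest without Hep3B-C. With every library kept but no replicate block, the log2 fold-changes were 0.85, 0.90 and -0.26 for miR-182, miR-183 and miR-96, and no call changed. Of the 5 nearest profiles, 3 remained among miRNAs with at least 1000 counts. Depth limits the passenger arms and miR-1271, at counts of 28 or fewer, and the lack of replicates limits every comparison.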
